A study of Mus musculus with 2 samples.

Results

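Lef1, Tcf7, Il7r and Dgka are 4 genes that naive and resting T cells are known to transcribe at high levels, and they were measured by name in both count tables of a single-cell RNA-seq study of immune cells from the glaucomatous mouse retina. The 4 genes are all listed in both libraries, among 17273 genes listed for the Igfbpl1 library and 15579 for the PBS library (17683 in either). The Igfbpl1 library came from B6 mice with microbead-induced glaucoma, in which injected beads raise the pressure of the eye, treated with Igfbpl1, an insulin-like growth factor binding protein-like protein. The PBS library came from B6 mice with the same microbead-induced glaucoma that received phosphate-buffered saline. Each library pooled the retinas of 10 mice aged 8 to 10 months, and CD45+ cells were sorted before 10x 3' capture, so retinal neurons and glia in the tables passed a sort for immune cells.

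The Igfbpl1 table held 3330 cells and 9463631 unique molecular identifiers (UMIs, each 1 captured transcript), with a median of 2355.5 per cell, and the PBS table held 1055 cells and 3795008 UMIs, with a median of 3433. No barcode was shared. With 1 library per treatment there is no replicate, so no p-value is given; the 95% intervals are exact and cover counting error only, and a difference between libraries cannot be told apart from a difference between pools of mice, sorts or captures. Levels are counts per 1000000 UMIs (CPM), from the summed UMIs of the cells named.

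Tcf7 encodes TCF1 and Lef1 encodes LEF1, HMG-box transcription factors that pair with beta-catenin and with Groucho/TLE repressors and that hold the naive and memory programme of T cells. Il7r encodes the alpha chain of the interleukin-7 receptor, which signals through JAK1, JAK3 and STAT5 for the survival of resting lymphocytes. Dgka encodes diacylglycerol kinase alpha, which removes the diacylglycerol made after T cell receptor engagement and so dampens RasGRP1 and protein kinase C theta. After activation, effector T cells are known to lower all of these genes, while memory precursors keep some of them. A healthy retina holds few T cells.

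The 4 genes lie on separate chromosomes of GRCm38 (GENCODE M21). Lef1 spans chr3:131110471-131224356 on the plus strand, Tcf7 spans chr11:52252371-52283014, Il7r spans chr15:9505788-9530176 and Dgka spans chr10:128720134-128744855, each of these last on the minus strand. All 4 matched by symbol to RefSeq promoter windows (GRCm38.p6, 250 bases before to 50 after a start site; for each gene the window nearest a principal GENCODE start), which were searched on both strands for CTTTGA (a TCF/LEF core), TGTGGT (a RUNX core) and AGGAAG (an ETS core), which do not overlap one another in the hits. The windows of Lef1 (chr3:131110073-131110372) and Tcf7 (chr11:52282965-52283264) held none of these letters. The windows of Il7r and Dgka are shown because they held matches, in capitals. Among 32851 mouse promoter windows of this length, 16.0% held the TCF/LEF core, 16.8% the RUNX core and 35.4% the ETS core, so a match in a window of this size is common.

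Il7r, chr15:9529827-9530126, minus strand: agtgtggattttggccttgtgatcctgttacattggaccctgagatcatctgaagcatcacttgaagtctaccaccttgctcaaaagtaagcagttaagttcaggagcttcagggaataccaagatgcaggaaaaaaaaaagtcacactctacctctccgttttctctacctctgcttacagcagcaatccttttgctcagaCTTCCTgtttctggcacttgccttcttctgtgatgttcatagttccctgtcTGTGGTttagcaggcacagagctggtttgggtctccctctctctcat
Dgka, chr10:128744027-128744326, minus strand: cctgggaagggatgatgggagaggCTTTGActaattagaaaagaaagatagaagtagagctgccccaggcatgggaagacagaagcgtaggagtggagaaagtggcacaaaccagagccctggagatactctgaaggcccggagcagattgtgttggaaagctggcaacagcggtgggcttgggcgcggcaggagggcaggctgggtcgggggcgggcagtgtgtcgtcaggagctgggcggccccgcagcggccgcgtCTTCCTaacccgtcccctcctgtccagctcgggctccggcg

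In the Il7r window the RUNX core began 3 bases after the start site and the ETS core 48 bases before it, on the opposite strand. In the Dgka window the TCF/LEF core began 226 bases before the start site and the ETS core 9 bases after it, on the opposite strand. These are matches of letters, with no binding measured.

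T cells were the cells with at least 1 UMI of Cd3d, Cd3e or Cd3g, the invariant chains of the T cell receptor complex, inside clusters named T-like, NK-like or gamma-delta T-like from markers that left the 4 genes out; the 4 genes were also left out of the clustering. They numbered 338 of 3330 cells (10.2%) in the Igfbpl1 library and 32 of 1055 cells (3.03%) in the PBS library, with medians of 2422 and 3723.5 UMIs per cell. All 14 T cell markers on the list had UMIs in both. Within them, Cd8 cells had a UMI of Cd8a or Cd8b1 and none of Trdc, Trdc cells had a UMI of the delta chain constant gene and none of Cd8, and the rest had neither. The Igfbpl1 T cells held 74 Cd8 cells, 80 Trdc cells, 183 with neither and 1 with both; the PBS T cells held 16 Cd8 cells and 16 with neither. The PBS table does not list Trdc, and all 12 gamma-delta markers were at 0 or not listed in PBS T cells (0 UMIs, against 1649 UMIs or 1465 CPM in Igfbpl1 T cells). Of the cells with neither, 18 of 183 in the Igfbpl1 library and 1 of 16 in the PBS library had a Cd4 UMI, so cells with neither cannot be read as CD4 T cells.

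All 4 genes were lower in the Igfbpl1 T cells than in the PBS T cells, and each interval of the ratio lay under 1. The call used throughout is a difference of 1.5-fold or more in CPM + 20, among genes with at least 20 UMIs in the pair. Between libraries, only genes listed for both were counted as measured. By this call the 4 of 4 were lower, and of the 6410 genes measured in these T cells 8.75% were lower and 28.1% higher. The 4 genes and the lists used below were chosen with earlier results of these data known, so their counts beside these shares are descriptions. The median gene lay at 0.22 on the log2 scale and the median of the 4 at -1.74.

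Lef1 had the smallest ratio, though its interval overlapped that of Dgka. It had 159 UMIs (141 CPM, 120 to 165) in Igfbpl1 T cells, against 99 UMIs (839 CPM, 682 to 1022) in PBS T cells, a ratio of 0.168 (0.130 to 0.219). Per cell, Igfbpl1 T cells ran from 0 through a median of 0 to 10 Lef1 UMIs, and PBS T cells from 0 through a median of 2 to 10. A cell with 3 or more Lef1 UMIs was rare in the first library (14 of 338) and frequent in the other (15 of 32), although single cells of both reached the same highest count. Tcf7 had 130 UMIs (115 CPM, 96.5 to 137) in Igfbpl1 T cells, against 43 UMIs (365 CPM, 264 to 491) in PBS T cells, a ratio of 0.317 (0.223 to 0.458). Its per-cell counts reached 7 in the Igfbpl1 library and 6 in the PBS library, with medians of 0 and 1, so the libraries overlapped cell by cell while differing in sum.

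Il7r, the receptor among the 4, had the ratio nearest 1. It had 421 UMIs (374 CPM, 339 to 411) in Igfbpl1 T cells, against 82 UMIs (695 CPM, 553 to 863) in PBS T cells, a ratio of 0.538 (0.424 to 0.690). The interval of its ratio did not overlap those of Lef1 or Dgka. Dgka, the kinase, had 58 UMIs (51.5 CPM, 39.1 to 66.6) in Igfbpl1 T cells, against 31 UMIs (263 CPM, 179 to 373) in PBS T cells, a ratio of 0.196 (0.125 to 0.314). No Igfbpl1 T cell held more than 2 Dgka UMIs, whereas 4 of 32 PBS T cells held 3 or more.

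Because PBS cells held more UMIs, each cell was also thinned to 1000 UMIs, which kept every cell. Thinning was a single random draw per cell, and the intervals do not cover the spread between draws. A Lef1 UMI then remained in 14.5% of Igfbpl1 T cells (10.9 to 18.7) and 37.5% of PBS T cells (21.1 to 56.3), and without thinning in 29.3% and 71.9%. Thinned shares for Tcf7 were 9.76% in Igfbpl1 T cells (6.82 to 13.4) and 21.9% in PBS T cells (9.28 to 40.0), and unthinned 23.4% and 53.1%. For Il7r they were 32.5% (27.6 to 37.8) and 50% (31.9 to 68.1) after thinning, with 55.6% and 75.0% before. For Dgka they were 4.44% (2.5 to 7.21) and 18.8% (7.21 to 36.4) after thinning, with 15.1% and 62.5% before. The thinned intervals of the libraries were separate for Lef1 and overlapped for Tcf7, Il7r and, only just, Dgka. Microglia-like cells, which should lack the T cell factors, gave the background: thinned, 0 of 1599 Igfbpl1 cells had a Lef1 UMI (a count of 0 allows up to 0.188%) and 0.130% of PBS cells did, at median depths of 2036 and 3488 UMIs.

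The 4 genes were also counted together in each T cell. In the Igfbpl1 library 90 of 338 T cells (26.6%, 22.0 to 31.7) had no UMI of any of them and 34.3% (29.3 to 39.6) had at least 2 of the genes. In the PBS library 1 of 32 T cells (3.13%, 0.0791 to 16.2) had none and 81.3% (63.6 to 92.8) had at least 2. All 4 genes were detected in 10 of 338 Igfbpl1 T cells and in 9 of 32 PBS T cells. Thinned to 1000 UMIs, none was detected in 52.4% of Igfbpl1 T cells (46.9 to 57.8) and 28.1% of PBS T cells (13.7 to 46.7). Both shares were above those at full depth, and the thinned intervals only just failed to overlap, which another random draw could change. Within the Igfbpl1 library, a Tcf7 UMI was found in 43.4% of the 99 T cells with a Lef1 UMI and in 15.1% of those without. Over all Igfbpl1 T cells, Il7r and Dgka did not pair in this way: a Dgka UMI was found in 15.4% of the 188 T cells with Il7r and in 14.7% of those without. The subsets differed in this. With and without Il7r, Dgka was found in 31.6% and 13.9% of Cd8 cells, 12.8% and 17.6% of cells with neither, and 7.32% and 10.3% of Trdc cells. Deeper cells are more likely to hold a UMI of any gene, so these shares are descriptions.

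**Figure D1:**
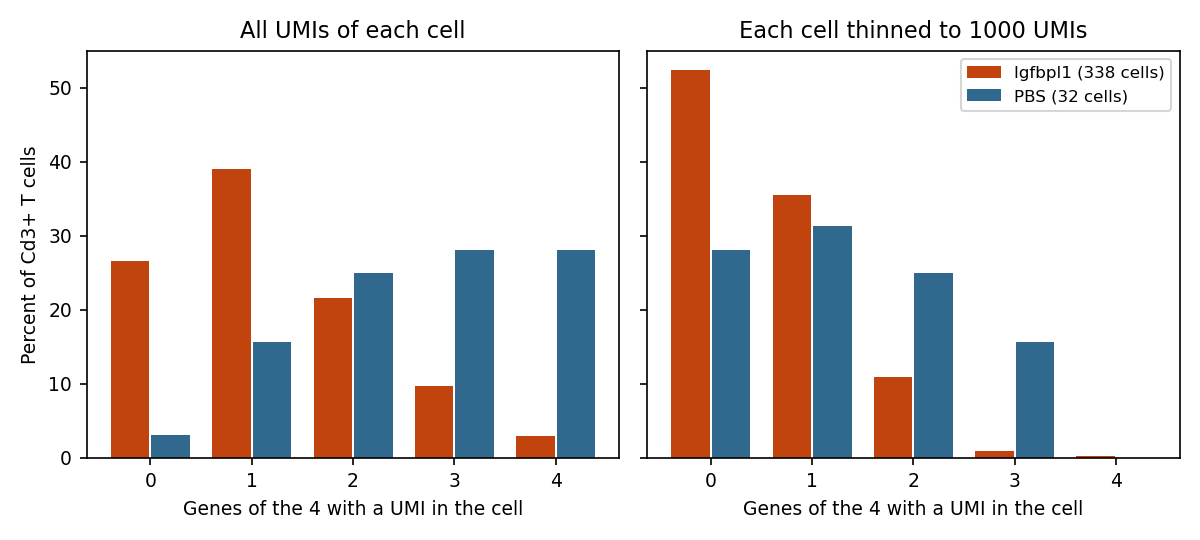
Percent of Cd3+ T cells (y axis) by the number of the 4 genes with a UMI in the cell (x axis), with all UMIs (left) and after thinning each cell to 1000 UMIs (right); bars are 338 Igfbpl1 cells and 32 PBS cells. With all UMIs, 26.6% of Igfbpl1 T cells and 3.13% of PBS T cells had none of the 4; after thinning, 52.4% and 28.1%.

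The lower levels were present inside the Cd8 cells and inside the cells with neither marker. In Cd8 cells Lef1 was at 176 CPM in the Igfbpl1 library (50 UMIs, 74 cells) and 825 CPM in the PBS library (57 UMIs, 16 cells), a ratio of 0.214 (0.143 to 0.318). In cells with neither, Lef1 was at 161 CPM in the Igfbpl1 library and 859 CPM in the PBS library, a ratio of 0.187 (0.129 to 0.276). The Cd8 and neither ratios were 0.397 (0.241 to 0.667) and 0.410 (0.238 to 0.751) for Tcf7, and 0.502 (0.355 to 0.719) and 0.584 (0.402 to 0.874) for Il7r. For Dgka they were 0.287 (0.143 to 0.583) and 0.182 (0.0938 to 0.369). All 8 of these intervals lay under 1. Leaving the Trdc cells out of the Igfbpl1 T cells gave ratios of 0.198 for Lef1, 0.387 for Tcf7, 0.541 for Il7r and 0.221 for Dgka, and the 4 of 4 were again called lower, where 8.58% of 5710 genes were.

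Between subsets of 1 library, Cd8 cells and cells with neither had near levels of all 4 genes. In the Igfbpl1 library the ratio of Cd8 cells to cells with neither was 1.10 for Lef1 (0.763 to 1.56), 1.16 for Tcf7 (0.783 to 1.69), 0.951 for Il7r (0.746 to 1.21) and 1.36 for Dgka (0.734 to 2.46). The PBS ratios ran from 0.860 for Dgka to 1.2 for Tcf7, with every interval across 1. Among all 5383 genes measured, 5.96% were higher and 6.61% lower in the Cd8 cells, and 0 of the 4 were called.

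Trdc cells of the Igfbpl1 library held Il7r at the level of the other T cells and less of the 2 transcription factors. A Trdc UMI alone does not show a gamma-delta receptor, since 31 of 189 Igfbpl1 NK-like cells without a Cd3 UMI had one too. Lef1 was at 54.8 CPM (29.2 to 93.7; 13 UMIs in 9 of 80 cells), against 161 CPM in cells with neither, a ratio of 0.341 (0.175 to 0.611). Tcf7 was at 16.9 CPM (4.60 to 43.2; 4 UMIs in 4 of 80 cells), against 134 CPM in cells with neither, a ratio of 0.126 (0.0335 to 0.335). Il7r was at 380 CPM (305 to 467; 90 UMIs in 41 cells), against 382 CPM in cells with neither, a ratio of 0.993 (0.769 to 1.27). Dgka was at 29.5 CPM (7 UMIs), against 52.0 CPM, a ratio of 0.568 (0.211 to 1.32). The background rates for this pair were 11.1% of 5253 genes higher and 9.78% lower; Lef1 and Tcf7 were called lower. Il17a, the cytokine of one gamma-delta lineage, was present in 41 of the 80 Trdc cells. The Trdc cells were not uniform in Il7r: 57 of them sat in the Il17a-bearing gamma-delta cluster, at 525 CPM (415 to 656), and 20 in the T-like cluster, at 146 CPM (75.5 to 255), a ratio of 3.6 (1.95 to 7.26). Of the 7 Dgka UMIs, 1 fell in the gamma-delta cluster and 6 in the T-like cluster, a ratio of 0.0922 (0.00200 to 0.760).

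**Figure D2:**
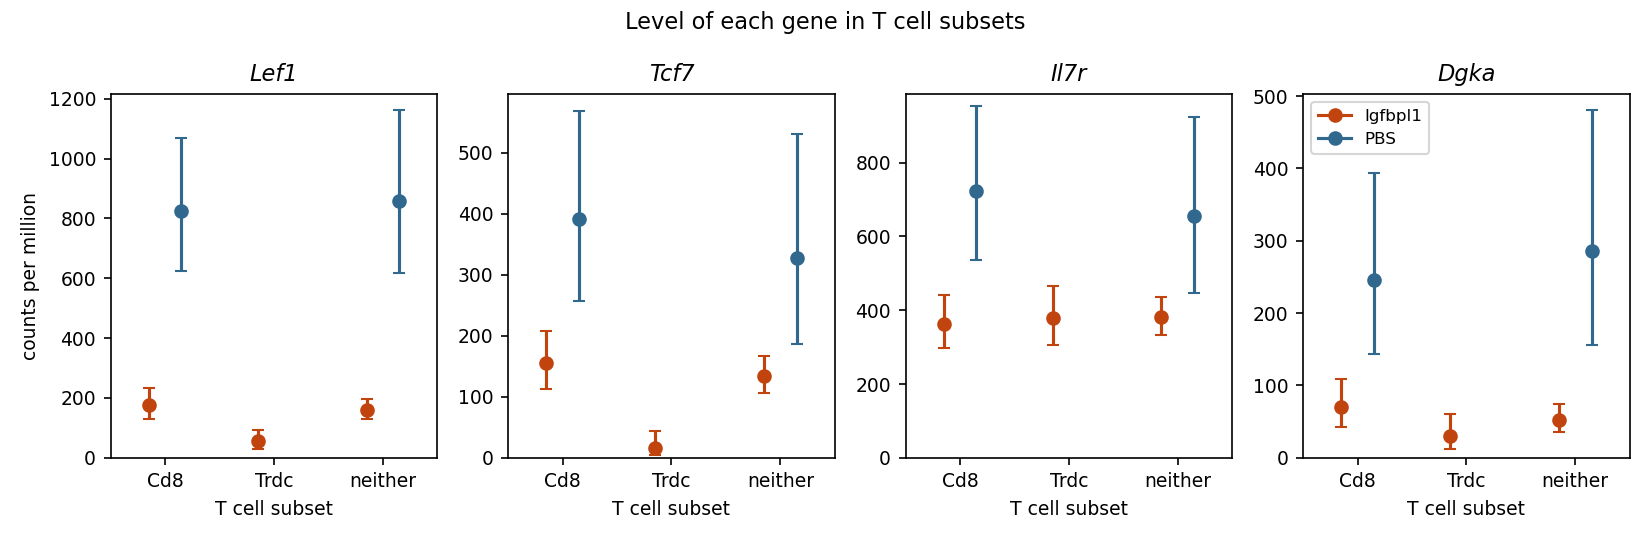
Level of each gene (CPM, y axis) in T cell subsets set by Cd8 and Trdc UMIs (x axis); points are library sums and bars exact 95% counting intervals, with Igfbpl1 left of PBS. PBS has no Trdc point; in Trdc cells Lef1 and Tcf7 were at 54.8 and 16.9 CPM while Il7r was at 380 CPM, near the other Igfbpl1 subsets.

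Outside T cells, the genes separated. Natural killer-like cells without a Cd3 UMI (189 cells, Igfbpl1 library) held Tcf7 at 106 CPM (77.6 to 140; 47 UMIs in 39 cells), and the ratio of T cells to these cells was 1.09 (0.778 to 1.56). TCF1 is known to be needed for NK cell development. Lef1 was at 74.1 CPM (51.0 to 104) in the NK-like cells, Il7r at 65.1 CPM (43.6 to 93.6) and Dgka at 18.0 CPM (7.76 to 35.4), all lower than in T cells of the same library, with T cell to NK-like ratios of 1.91 (1.3 to 2.86), 5.74 (3.94 to 8.68) and 2.87 (1.36 to 6.95). Of the 28 NK-like cells with Lef1 and the 39 with Tcf7, 3 in each set were scored as doublets. The PBS library held 3 such cells.

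Il7r was as high in dendritic-like cells as in T cells of the Igfbpl1 library. A cluster of 103 dendritic-like cells, all from the Igfbpl1 library, with Ccr7 in 89 and Fscn1 in 91 cells, held Il7r at 367 CPM (297 to 448; 96 UMIs in 51 cells) and Tcf7 at 118 CPM (80.5 to 168; 31 UMIs in 18 cells), with T cell ratios of 1.02 (0.815 to 1.29) and 0.975 (0.655 to 1.49). Lef1 had 1 UMI and Dgka 0 UMIs in these cells (a limit of 11.5 CPM). Only 2 of the 51 cells with Il7r and 1 of the 18 with Tcf7 had a Cd3 UMI. Plasmacytoid dendritic-like cells (76 cells, Igfbpl1 library) held Il7r at 339 CPM (276 to 413; 99 UMIs in 44 cells, none with Cd3) and no UMI of Lef1, Tcf7 or Dgka, each under a limit of 10.3 CPM. IL-7 receptor alpha also forms the receptor for TSLP with the product of Crlf2, a cytokine to which dendritic cells respond.

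B-like cells held Lef1 and Dgka but not Tcf7 or Il7r. Lef1 was at 81.9 CPM (47.7 to 131; 17 UMIs in 9 of 79 cells, at most 3 in a cell) in Igfbpl1 B-like cells, against 9.97 CPM (1.21 to 36.0; 2 UMIs in 2 of 81 cells) in PBS B-like cells, a ratio of 8.21 (1.95 to 73.3), which runs the other way from T cells. Of the 9 cells, 1 had a Cd3 UMI and none was scored as a doublet. LEF1 is known in early B cell precursors. Vpreb1, of B cell precursors, had 0 UMIs in the B-like cells of both libraries, and Ighd, of mature B cells, had UMIs in 39 of 79 Igfbpl1 and 62 of 81 PBS B-like cells. The B cell marker Cd79a had UMIs in 66 of 79 Igfbpl1 (1315 CPM) and 81 of 81 PBS B-like cells (2922 CPM). Ighm, another marker, had UMIs in 58 of 79 and 79 of 81. Whether the class held the same mix of cells in both libraries was not tested. Dgka was at 28.9 CPM (6 UMIs) in Igfbpl1 and 54.8 CPM (11 UMIs) in PBS B-like cells, a ratio of 0.527 (0.160 to 1.55). Tcf7 had 1 UMI in the Igfbpl1 and 0 in the PBS B-like cells, and Il7r had 0 and 1.

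Microglia-like cells, the largest class, held Il7r at 18.4 CPM (14.3 to 23.4; 64 of 1599 cells) in the Igfbpl1 library and 22.7 CPM (17.5 to 29.0; 56 of 769 cells) in the PBS library, a ratio of 0.810 (0.567 to 1.16). Dgka was at 7.05 CPM and 10.7 CPM in them, a ratio of 0.661 (0.375 to 1.16). Lef1 and Tcf7 had 1 UMI each in 1599 Igfbpl1 microglia-like cells, and 2 and 0 UMIs in 769 PBS cells. Thinned shares for Il7r were 2.38% and 2.34%, under the 32.5% and 50% of T cells. Bipolar-like and rod-like cells had 0 UMIs of all 4 genes in both libraries. Monocyte/macrophage-like cells (339 Igfbpl1, 21 PBS) had Il7r at 12 and 10.4 CPM and no Lef1 or Tcf7.

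**Figure D3:**
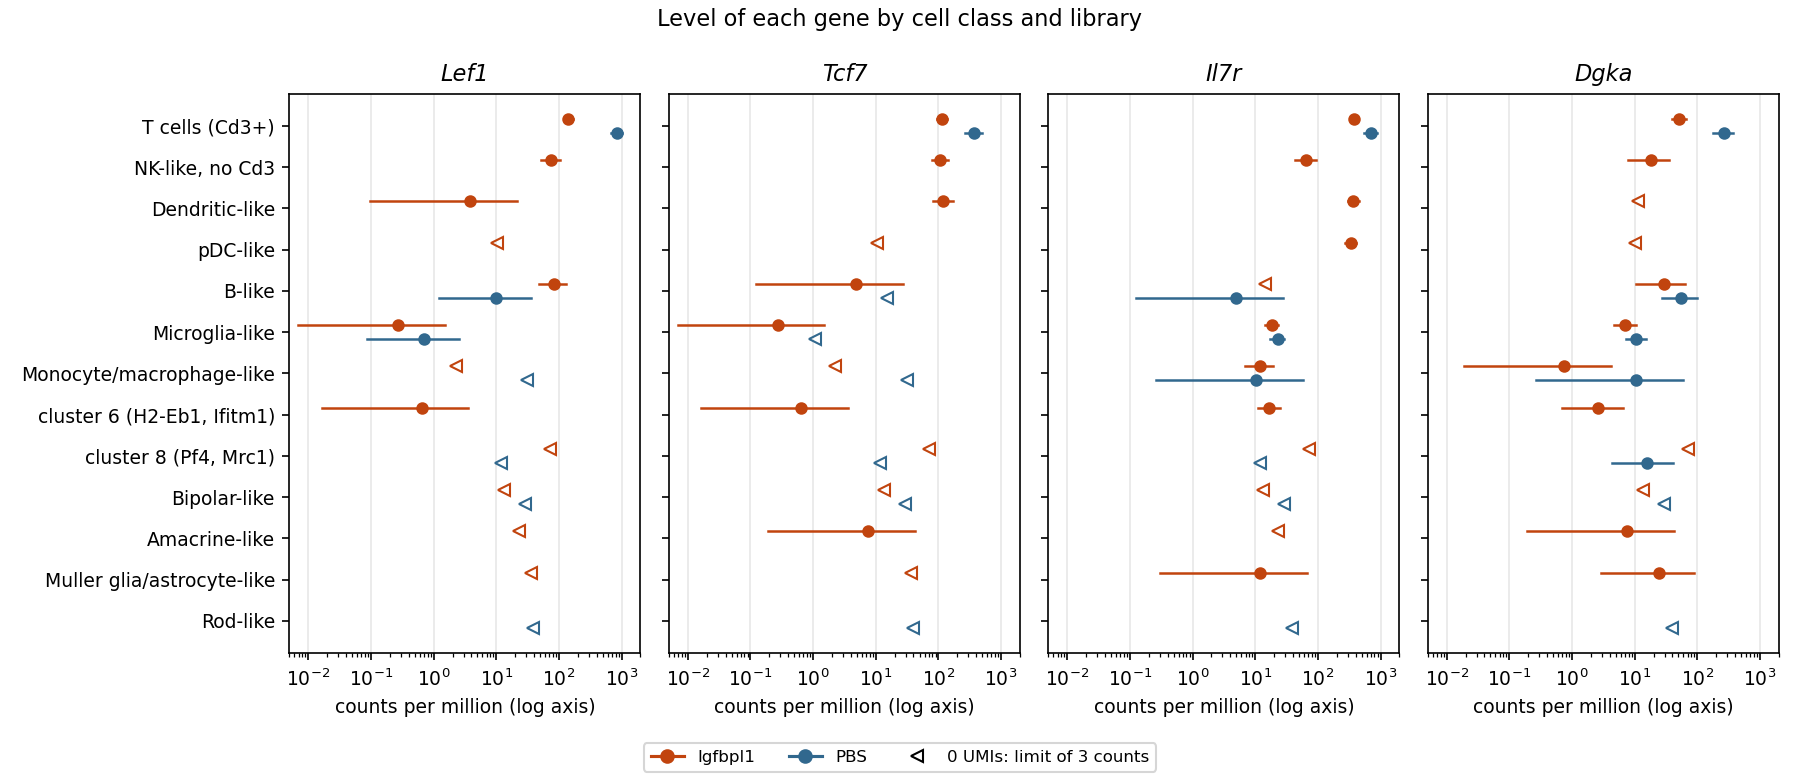
Level of each gene (CPM, log x axis) by cell class with at least 20 cells in the library; filled points are library sums with exact 95% counting intervals, and open triangles are the limit of 3 counts where no UMI was seen. Il7r was at 339 to 374 CPM in Igfbpl1 T cells, dendritic-like and plasmacytoid dendritic-like cells, while Lef1 was near 0 in dendritic-like cells.

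Within the Igfbpl1 library the order of Lef1 was T cells, B-like cells, NK-like cells and then the rest, and the intervals of B-like cells overlapped those on either side. Tcf7 ran dendritic-like cells, T cells and NK-like cells, with all intervals overlapping, far above the other classes. Il7r ran T cells, dendritic-like and plasmacytoid dendritic-like cells, overlapping, then NK-like cells, then cells under 20 CPM. Dgka ran T cells, B-like cells, Muller glia/astrocyte-like cells (2 UMIs in 35 cells) and NK-like cells, with B-like cells overlapping all of these and T cells not overlapping NK-like cells. In the PBS library T cells were above every other class of at least 20 cells for all 4 genes, with no overlap of intervals.

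Summed over all cells of a library, the direction of 2 genes was the opposite of that in T cells. Tcf7 was at 23.2 CPM in the Igfbpl1 library and 11.6 CPM in the PBS library, a ratio of 2.01 (1.45 to 2.84), and Il7r at 83.2 and 39.3 CPM, a ratio of 2.12 (1.78 to 2.54). Lef1 was at 22.8 and 27.1 CPM, a ratio of 0.841 (0.662 to 1.07), and Dgka at 11.3 and 20.8 CPM, a ratio of 0.543 (0.402 to 0.736). The Igfbpl1 library held a larger share of T cells, as well as the NK-like and dendritic-like cells that the PBS library nearly lacked.

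Genes whose level followed each of the 4 most closely over the 14 Igfbpl1 classes of at least 20 cells were ranked by Pearson's r of log2(CPM + 20) among 7895 genes with at least 100 UMIs. Lef1 was followed by Gimap7 (r = 0.97), Cd2, Gpr174, Gimap3 and Itga1 (0.96). For Tcf7 they were Tnfrsf9 (0.90), Tnfrsf18, Arap2, Gramd3 and Il12rb2 (0.86). For Il7r they were Socs1 (0.91), Nlrc5, Unc13d, Topbp1 and Prr13 (0.83). For Dgka they were Lockd (0.94), Lef1 (0.89), S1pr1, St6galnac3 and Timm8a1 (0.85). The 14 classes share a library and 3 of them are T cell subsets, so these are descriptions.

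The other naive and resting T cell genes were mostly lower too. Of 22 measured members of that list, 0 were higher and 15 lower in Igfbpl1 than in PBS T cells, with a median of -0.99. Of all 6410 genes measured in the same T cells, 28.1% were higher and 8.75% lower, with a median of 0.22. The 3 list genes with the smallest ratio were Actn1, Igfbp4 and S1pr1, the receptor by which lymphocytes leave tissue. Actn1 was at 27.5 CPM in Igfbpl1 and 178 CPM in PBS T cells, a ratio of 0.155 (0.0861 to 0.283). Igfbp4 was at 23.1 and 119 CPM, a ratio of 0.195 (0.0980 to 0.403). S1pr1 was at 70.2 and 229 CPM, a ratio of 0.307 (0.196 to 0.494). Among the most abundant, Klf2, a quiescence factor, was at 799.5 and 1229 CPM, a ratio of 0.650 (0.545 to 0.781), and Gimap6 at 395 and 805 CPM, a ratio of 0.491 (0.393 to 0.619). Ltb (584 and 593 CPM), Foxo1 (105 and 110 CPM) and Tcf12 (255 and 271 CPM) had the largest ratios of the list, 0.984, 0.951 and 0.940, and each interval included 1. Within the 8 Igfbpl1 and 15 PBS Y-only T cells, a set defined with the sex-linked genes below, 0 of 13 measured genes of the list were lower and 2 higher, and within the 225 and 4 Xist-only cells 13 of 21 were lower and 2 higher. Of all genes measured, 22% of 437 were higher and 24.7% lower in the Y-only cells, and 42.1% of 5177 were higher and 21.2% lower in the Xist-only cells. FOXO1 is known to drive Il7r and Klf2.

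Activated, effector and tissue-resident genes lay on the other side. Of 27 measured, 22 were higher and 1 lower in Igfbpl1 than in PBS T cells, where 28.1% of all measured genes were higher and 8.75% lower; the median of the list was 1.19 and that of all genes 0.22. S100a4 was at 958 CPM in Igfbpl1 and 110 CPM in PBS T cells, a ratio of 8.70 (5.06 to 16.4). Ifng was at 365 and 33.9 CPM, a ratio of 10.8 (4.17 to 39.7; 411 and 4 UMIs). Bhlhe40 had 93 UMIs and 0 UMIs, at least 3.25-fold higher against 3 counts in PBS T cells, with an exact interval that began at 2.59. The abundant Ccl5, Ccl4, S100a6 and Lgals1 had ratios of 2.18, 3.39, 4.98 and 4.36. Itga4, an integrin chain, was the exception: 177 CPM in Igfbpl1 and 466 CPM in PBS T cells, a ratio of 0.379 (0.280 to 0.521). Tnf (46.2 and 67.8 CPM) and Prdm1 (24.9 and 17.0 CPM) were not called. In the Xist-only cells 19 of 26 measured were higher and 2 lower, and in the Y-only cells 5 of 6 were higher and 0 lower, beside the shares of all genes in those cells given above. With the 3 genes at 0 in PBS set to their bound, the median was 1.17.

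The lists closest to the work of each of the 4 had medians of 0.18 (TCF/LEF and Wnt), 0.09 (IL-7 receptor signalling), 0.30 (diacylglycerol signalling; 0.02 with the gene at 0 in PBS set to its bound) and -0.15 (T cell receptor complex), beside 0.22 for all genes. Their counts of called genes are to be read against the 28.1% of all 6410 genes higher and 8.75% lower. Of 11 measured TCF/LEF partners and Wnt genes, 1 was higher (Gata3, 48.9 and 17.0 CPM in Igfbpl1 and PBS T cells, ratio 2.88, 0.761 to 24.4) and 1 lower (Bcl11b, 143 and 297 CPM, ratio 0.482, 0.333 to 0.716). Tle5 and Tle4, of the Groucho family, had ratios of 0.845 (0.621 to 1.17) and 0.713 (0.467 to 1.13), and Runx3 one of 1.43 (0.896 to 2.41). Of 12 measured genes of IL-7 receptor signalling, 3 were higher and 1 lower, near those shares. The 3 belong to the SOCS family of STAT-induced inhibitors: Cish at 58.6 and 8.48 CPM, Socs3 at 98.6 and 25.4 CPM and Socs1 at 85.3 and 25.4 CPM, with ratios of 6.92 (1.2 to 277), 3.88 (1.29 to 19.1) and 3.35 (1.11 to 16.5). The lower gene was Stat5b, at 87.1 and 161 CPM, a ratio of 0.540 (0.328 to 0.936). Il2rg, the common chain that pairs with Il7r, was at 184 and 161 CPM, a ratio of 1.14 (0.713 to 1.93), and Jak1 at 332 and 407 CPM, a ratio of 0.816 (0.603 to 1.13).

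Of 11 measured genes of diacylglycerol signalling other than Dgka, 1 was higher and 3 lower. Prkcq, protein kinase C theta, was at 152 and 407 CPM in Igfbpl1 and PBS T cells, a ratio of 0.373 (0.270 to 0.526). Rasgrp2 was at 28.4 and 67.8 CPM, a ratio of 0.419 (0.189 to 1.05), and Prkca at 136 and 254 CPM, a ratio of 0.534 (0.360 to 0.819). Dgkh, another diacylglycerol kinase, had 29 UMIs in Igfbpl1 T cells and 0 in PBS T cells, and the exact interval of its ratio began at 0.773. Rasgrp1 (111 and 67.8 CPM) and Dgkz (47.1 and 33.9 CPM), the zeta kinase that T cells are also known to use, had ratios of 1.64 (0.806 to 3.88) and 1.39 (0.511 to 5.28). Of 12 T cell receptor complex genes, 0 were higher and 5 lower, among them Cd8b1 and Cd8a (ratios 0.370 and 0.345), which a smaller share of Igfbpl1 T cells bore. Trbc2 (786 CPM in Igfbpl1 and 1441 CPM in PBS T cells) and Trbc1 (331 and 576 CPM) were also among the lower genes. Cd3d, Cd3e and Cd3g, which set the gate, had ratios of 0.853 (0.704 to 1.04), 1.01 (0.713 to 1.46) and 1.04 (0.854 to 1.27). Without the Trdc cells, a subset that could not be set in the PBS library, they were 0.803 (0.660 to 0.984), 0.901 (0.633 to 1.32) and 0.780 (0.637 to 0.963).

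**Figure D4:**
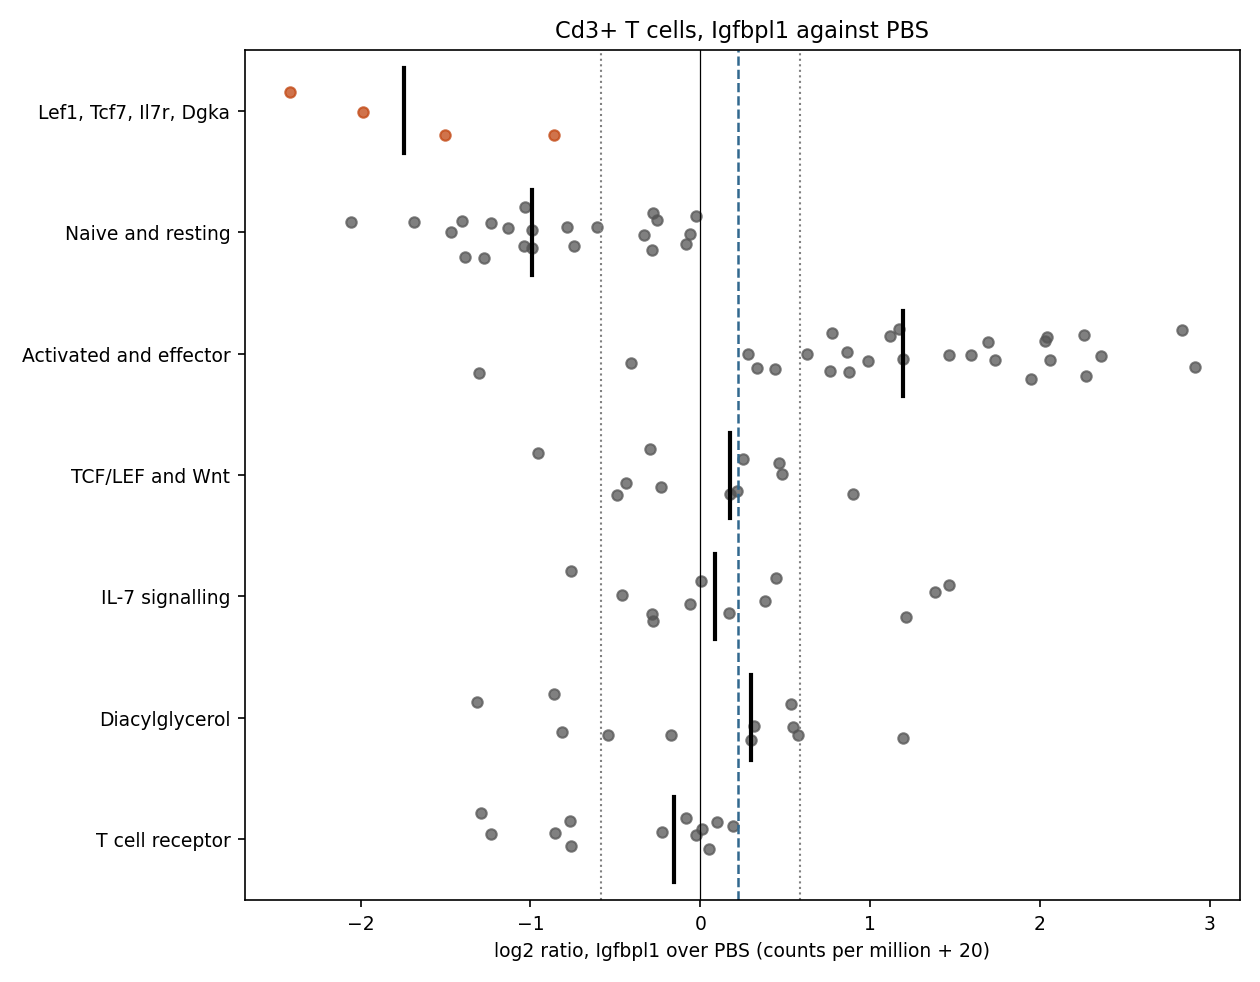
log2 ratio of Igfbpl1 over PBS Cd3+ T cells (x axis, CPM + 20) for each measured gene of the 4 and of 6 gene lists (rows); black bars are list medians, the dashed line is the median of 6410 genes and dotted lines mark 1.5-fold. All 4 genes and 15 of 22 naive and resting genes lie left of the lower dotted line, and 22 of 27 activated and effector genes right of the upper one.

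The same lists were compared within the Igfbpl1 library. Of its 257 T cells without Trdc, 122 had a UMI of Lef1 or Tcf7 and 135 had none, with median depths of 2771.5 and 2058 UMIs. Of 22 naive and resting genes, 8 were higher and 1 lower (Ltb) in the cells with a UMI, against 7.19% of 5383 genes higher and 4.07% lower. Actn1 was at 45.6 CPM in cells with and 13.3 CPM in cells without a Lef1 or Tcf7 UMI, a ratio of 3.42 (1.27 to 11.5), and S1pr1 at 99.1 and 56.0 CPM, a ratio of 1.77 (1.04 to 3.1). Of 29 activated and effector genes, 1 was higher (Zeb2) and 9 were lower. S100a4 was at 307 and 685 CPM, a ratio of 0.448 (0.365 to 0.550), S100a6 at 832 and 1623 CPM, a ratio of 0.513 (0.452 to 0.582), and Ifng at 337 and 536 CPM, a ratio of 0.629 (0.510 to 0.775). Gzmb, a granule protease that the PBS table does not list, was at 67.4 and 274 CPM, a ratio of 0.245 (0.161 to 0.365). The cells were divided by 2 of the 4 genes, so for those the difference is set by the division. A cell of lower depth is more likely to lack a UMI, so the division also follows depth. The counts of both lists are therefore descriptions.

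In PBS T cells, 5 of 32 cells had no Lef1 or Tcf7 UMI. They held 11.4% of the UMIs of these T cells, but 4 of 4 Ifng UMIs, 43.0% of Ccl5 UMIs (102 of 237) and 46.8% of S100a6 UMIs (22 of 47), and 0 of 100 Foxp1 UMIs.

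**Figure D5:**
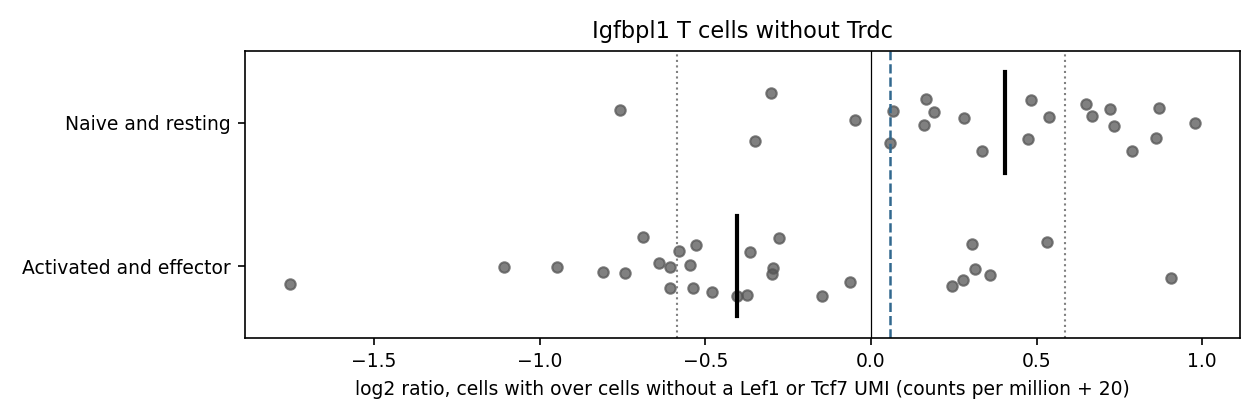
log2 ratio in Igfbpl1 T cells without Trdc, 122 cells with over 135 cells without a Lef1 or Tcf7 UMI (x axis, CPM + 20), for each measured naive and resting gene and activated and effector gene (rows); black bars are medians, the dashed line is the median of 5383 genes and dotted lines mark 1.5-fold. The naive and resting genes centre at 0.40 and the activated and effector genes at -0.40.

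Both lists were also compared in B-like cells. Of the naive and resting list 1 of 15 measured genes was higher and 11 were lower (median -0.73), and of the activated and effector list 7 of 9 were higher and 0 lower (median 2.07), where 15.4% of 3053 genes were higher and 20.1% lower in Igfbpl1 than in PBS B-like cells (median -0.12). Ccl5 was at 477 and 4.99 CPM in Igfbpl1 and PBS B-like cells (99 and 1 UMIs) and Id2 at 149 and 4.99 CPM (31 and 1 UMIs), each named after its value was seen. Lef1, at 19 UMIs in all, fell under the minimum for that count.

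Other measures moved with library in the T cells. Ribosomal protein genes took a median of 29.2% of UMIs in Igfbpl1 and 40.8% in PBS T cells, and scaling without ribosomal and mitochondrial genes brought the median of all genes to 0.04 and left the ratios of the 4 at 0.138 to 0.442. The 14 T cell markers, which leave the 4 genes out, summed to 5108 CPM in Igfbpl1 and 7366 CPM in PBS T cells. In the marker sums that follow, a marker given at 0 in PBS T cells may be one that the PBS table does not list. Some of these markers are not particular to other cell types. Ly6c2, a monocyte/macrophage marker, was among the top genes of the T-like cluster at resolution 0.4. Ctla4, a regulatory T cell marker, and Gzma and Eomes, NK markers, are also on the activated and effector list. Monocyte/macrophage markers summed to 2265 CPM in Igfbpl1 T cells (11 of 11 markers) and 492 CPM in PBS T cells (5 of 11; Ccr2, Ms4a7, F13a1, Chil3, Mrc1 and Pf4 at 0), microglia markers to 907 CPM (11 of 11) and 848 CPM (10 of 11; Sall1 at 0), and NK markers to 492 CPM (10 of 10) and 153 CPM (5 of 10; Ncr1, Klra8, Klra4, Eomes and Gzma at 0 or not listed). Regulatory T cell markers summed to 735 CPM in Igfbpl1 T cells (5 of 5) and 144 CPM in PBS T cells (3 of 5; Foxp3 and Il2ra at 0), innate lymphoid markers to 270 CPM (8 of 8) and 33.9 CPM (2 of 8; Il1rl1, Areg, Calca, Klrg1, Hes1 and Arg1 at 0), and plasmacytoid dendritic markers to 578 CPM (9 of 10) and 195 CPM (5 of 10; Cox6a2, Klk1, Spib, Cd209d and Ly6d at 0). At least 10 UMIs of Cd74, H2-Aa, H2-Ab1 or H2-Eb1 were found in 32 of 338 Igfbpl1 T cells (median 7558.5 UMIs, 6 scored as doublets) and 0 of 32 PBS T cells; without them the ratios were 0.177 for Lef1, 0.327 for Tcf7, 0.592 for Il7r and 0.212 for Dgka. Cells with Xist and no Y-linked UMI made up 225 of the 338 Igfbpl1 and 4 of the 32 PBS T cells, and cells with Y-linked UMIs and no Xist 8 and 15, so the sex of the donors of these T cells and treatment cannot be told apart. Within Xist-only T cells the ratios were 0.154 for Lef1 (0.0915 to 0.275), 0.492 for Tcf7 (0.203 to 1.55), 0.670 for Il7r (0.358 to 1.41) and 0.148 for Dgka (0.0615 to 0.432); within Y-only T cells, whose Igfbpl1 cells held 5, 1, 8 and 3 UMIs of the genes, they were 0.352 (0.109 to 0.883), 0.122 (0.00297 to 0.741), 0.487 (0.20 to 1.03) and 0.559 (0.105 to 1.93), all under 1, with intervals past 1 for Tcf7 and Il7r in the first set and for Il7r and Dgka in the other. The part of ribosomal share, sex and markers listed for other cell types in the library differences was not tested beyond these values.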

How the data were processed

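Each library was a 10x 3' single-cell capture of CD45+ retinal cells. The deposited values are whole-number UMI counts per gene and cell, made by the authors with Cell Ranger 3.1 on mm10, per the submitters' processing notes; no source used here gives the gene annotation. Reads, empty droplets and any filter before deposit were not analysed here. All deposited cells had at least 1001 UMIs, and a filter of 200 genes and 20% mitochondrial UMIs removed 0 cells.

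From the counts, both libraries were normalised to 10000 UMIs per cell, and 2000 variable genes without the 4 genes (3 of which were variable) gave 30 components, 15 neighbours and Leiden clusters at resolution 0.8 (scanpy 1.11.5). Clusters were named X-like from marker lists, and cluster 6 and cluster 8 kept numbers because markers of another class led them. Scrublet scored 62 Igfbpl1 cells (1.86%) and 6 PBS cells (0.569%) as doublets, which were kept; in the PBS library it may have found few. UMIs were summed per class and library; levels have exact Poisson intervals, ratios exact conditional binomial intervals and shares Clopper-Pearson intervals (scipy 1.17.1), at 95%. A gene was measured with at least 20 UMIs in a pair and called at 1.5-fold of CPM + 20, which understates changes of low genes. Between libraries it also had to be listed for both, which left out genes such as Gzmb. A count of 0 was set to 3 counts per library for a bound. Calculations were tested on simulated data.

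The 4 genes, the 6 lists and the tests were chosen with earlier results of these data known. Named list genes are the up to 4 highest in Igfbpl1 T cells and the up to 3 largest and 3 smallest ratios of each list. Gzmb, Foxp1, Zeb2, Dgkz, Crlf2, Cd79a, Ighm and the PBS cells without Lef1 or Tcf7 were named after their values were seen. Alternatives covered clustering, the Cd3 gate, depth, doublets, scaling, thinning and the list thresholds.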

Additional observations from a re-analysis of the deposited data

Results flagged for a closer look

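Lef1 differed in opposite directions between the libraries in 2 classes: it was higher in Igfbpl1 than in PBS B-like cells, with a ratio of 8.21 (1.95 to 73.3; 17 UMIs in 79 cells and 2 UMIs in 81 cells), and lower in Igfbpl1 than in PBS T cells, with a ratio of 0.168 (0.130 to 0.219). The intervals lie on opposite sides of 1. In B-like cells the Lef1 UMIs of both libraries together fell under the minimum for a call, so Lef1 was not called there. The B-like cells also differed in the B cell marker Cd79a, at 1315 CPM in the Igfbpl1 and 2922 CPM in the PBS library. Ccl5 and Id2, of the activated and effector list, were higher in the Igfbpl1 B-like cells, as given above. Whether the B-like cells were the same mix of cells in both libraries was not tested. The difference between the classes was not tested, since each treatment has 1 library.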

How the results depend on the processing

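The ratio between libraries stayed under 1 for all 4 genes in T cells under 13 alternatives each, from 0.138 to 0.352 for Lef1, 0.122 to 0.492 for Tcf7, 0.417 to 0.763 for Il7r and 0.148 to 0.559 for Dgka. The alternatives share many cells and are not independent. Clustering at resolution 0.4, or with the 4 genes kept, left 338 Igfbpl1 and 32 PBS T cells, as in the main setting. Values outside the counting interval of the reported one were as follows. Ratios were 0.492 for Tcf7 in Xist-only cells (225 Igfbpl1 and 4 PBS T cells), 0.352 for Lef1, 0.122 for Tcf7 and 0.559 for Dgka in Y-only cells (8 and 15), and for Il7r 0.417 in cells of at least 2000 UMIs and 0.763 as a mean of the CPM of each cell. In Igfbpl1 T cells Il7r was then at 309 and 506 CPM; it was at 325 CPM with Cd3+ cells of every cluster and 412 CPM without MHC class II-bearing cells. Without Trdc cells Lef1 was at 166 and Tcf7 at 141 CPM. The Cd8 over neither ratio of Il7r was 1.22 with every cluster and 1.23 at 2000 UMIs, and its Trdc over neither ratio 1.34 with every cluster. Scaled without ribosomal and mitochondrial genes, levels in Igfbpl1 and PBS T cells were 205 and 1484 CPM for Lef1, 168 and 644 for Tcf7, 543 and 1229 for Il7r, and 74.8 and 465 for Dgka. Shares thinned to 2000 UMIs were 27.9% of Igfbpl1 T cells for Lef1, 16.9% and 44.4% of Igfbpl1 and PBS T cells for Tcf7, 45.2% and 74.1% for Il7r and 7.31% and 48.1% for Dgka; unthinned they were 29.3% and 71.9%, 23.4% and 53.1%, 55.6% and 75.0%, and 15.1% and 62.5%. In Xist-only cells 2 naive and resting genes were higher and 2 activated and effector genes lower. In Y-only cells 0 naive and resting genes were lower and 2 higher of 13 measured, and 5 activated and effector genes were higher and 0 lower of 6 measured. Leaving out MHC class II-bearing cells, or scaling without ribosomal and mitochondrial genes, gave 2 lower activated and effector genes. The causes were not tested. Xist-only and Y-only cells gave no ratio for Lef1 in B-like cells, where PBS had 0 UMIs. The median of all genes ran from -0.01 to 0.29 on the log2 scale. MHC class II, Trdc and Y-only settings were chosen after seeing the data. The 32 PBS T cells limit every ratio. No paired analysis was possible because each treatment has 1 library.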
